A study of Mus musculus with 2 samples.

Results

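Collagen genes were described in the accessible chromatin of the adult mouse cortex. The group held the 42 autosomal protein-coding genes of the GENCODE M21 annotation (mm10 assembly) whose symbols have the form of a collagen alpha chain, out of 20807 autosomal protein-coding genes. Membership follows from the symbol. The 2 X-linked chains Col4a5 and Col4a6 were outside the rule and were not analysed here. DNase-seq, which sequences the ends left where DNase I cuts open chromatin, had been applied to tissue of the left cerebral cortex. The mice were males of B6CASTF1/J, a hybrid of a laboratory strain and a castaneus-derived strain, 8 to 10 months old. Their 2 libraries, biological replicates 1 and 2, formed the only group, without treatment, mutation or control. Both libraries carry one donor identifier and different biosample identifiers, so the spread between them may not include variation between animals, and with 1 group no test was possible.

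Collagens are extracellular proteins built from chains that wind around each other into a helix. Fibrillar collagens form the fibres of bone, cartilage, skin and tendon, type IV collagen forms the sheet of basement membranes, and transmembrane collagens stay anchored in the cell surface. In the brain they are known mainly from the meninges and from the basement membrane of blood vessels, with a few chains made by neurons.

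Per library, the stricter peak list gave 40705 peaks in replicate 1 and 39508 in replicate 2, called narrow peaks here, and a broader list gave 71210 and 72217. Footprints, short runs of bases spared by the enzyme within open sites, numbered 166128 and 174394. Peak strength is the authors' signal value for each peak, whose normalization is not given in the sources used here. A promoter peak is one that overlaps 1000 bp on either side of a transcript start. As a check of the labelled tissue, 7 of 10 cortical neuron markers had a promoter narrow peak in both libraries, against 56% of all genes, as did 1 of 8 meningeal fibroblast markers, 1 of 8 mural cell markers, 0 of 7 endothelial markers, 1 of 7 bone and cartilage markers and 1 of 5 keratinocyte markers. In the broader list the counts were 9 of 10 neuron, 3 of 8 meningeal and 4 of 8 mural markers. Those of endothelial, bone and cartilage, and keratinocyte markers were 0 of 7, 2 of 7 and 1 of 5, against 62% of all genes. The mural share was thus nearer to that of all genes there (50%) than in the narrow list (12.5%). The neuron marker Slc17a7 had no promoter peak in either list. The windows of the meningeal, mural and endothelial lists held 6 and 9, 10 and 13, and 9 and 10 narrow peaks in replicates 1 and 2, and none of the 7 endothelial markers had a promoter narrow peak in either library. Fewer cells of a type and less accessible DNA per cell cannot be told apart in such bulk tissue, and the part of the cell types in the collagen results was not tested.

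Most collagen promoters carried no narrow peak. A promoter narrow peak was present in both libraries for 13 of 42 collagen genes (31.0%), against 56% of all genes. The 13 were the fibrillar genes Col1a1, Col2a1, Col11a1 and Col27a1, the type IV genes Col4a1 and Col4a2, the transmembrane genes Col13a1, Col23a1 and Col25a1, and Col19a1, Col6a2, Col8a1 and Col26a1. Another 2 had one in replicate 1 alone (Col5a1 and Col16a1) and 4 in replicate 2 alone (Col5a2, Col11a2, Col24a1 and Col12a1). The other 23 had none in either library. Of all 20807 genes, 422 had one in replicate 1 alone, 454 in replicate 2 alone and 8275 in neither. For 18 of those 23 the deposited table of false discovery rates, which lists intervals under 0.05, held no interval at the promoter in either library. The matching share over all genes without a promoter narrow peak was not computed, so the 18 cannot be called high or low. With the broader list the count was 16 of 42 collagen genes (38.1%), against 62% of all genes. The added genes were Col5a2, Col15a1 and Col16a1.

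**Figure D1:**
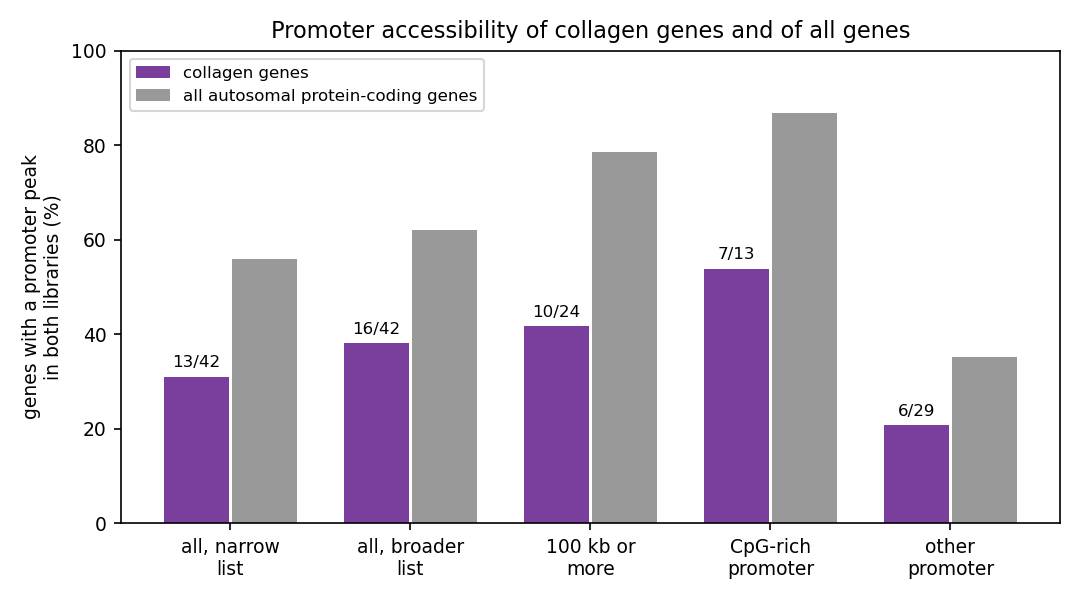
Share of genes (%) with a promoter peak in both libraries, for collagen genes (purple, with counts) and all autosomal protein-coding genes (grey), over all genes in the narrow and broader lists and, for narrow peaks, over genes of 100 kb or more and by CpG content of the promoter. The collagen bar is the lower one in each of the 5 pairs, for example 13 of 42 (31.0%) beside 56% in the narrow list.

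The shortfall was present among long genes and within each kind of promoter sequence. Collagen genes were long, with a median of 110.85 kb (range 7.105 to 468.377 kb), against 17.629 kb for all genes. Among genes of 100 kb or more, 10 of 24 collagen genes (41.7%) had a promoter narrow peak in both libraries, against 78.5% of all genes of that length. Promoters were called CpG-rich where the 250 bases before to 50 after the main start had a CpG observed/expected ratio over 0.6 and a GC content over 55%. Of CpG-rich collagen genes, 7 of 13 (53.8%) had a promoter narrow peak in both libraries, against 86.9% of all CpG-rich genes. Of the other collagen genes, 6 of 29 (20.7%) did, against 35.2% of all such genes. For these the gap was smaller in replicate 2 alone, with 9 of 29 (31.0%), against 37.5%. In replicate 1 alone it was 7 of 29 (24.1%), against 37.2%. The CpG-rich collagen genes without one in both libraries were Col5a1, Col5a3, Col8a2, Col9a3, Col12a1 and Col15a1. Counting only the main start, the start of the transcript with the best APPRIS rank, left 12 of 42 collagen genes, against 52% of all genes, and the gene lost was Col2a1.

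The collagen promoter peaks that were present were also weak. Over the 13 genes the median strength of the strongest promoter peak was 1.14 in replicate 1 and 1.30 in replicate 2, against 2.80 and 2.44 for all genes with a promoter narrow peak in both libraries. All 13 lay below that all-gene median in replicate 1, and 12 of 13 did in replicate 2, where Col26a1 was above it. Ranked among all genes with a promoter narrow peak in the same library, they had percentiles of 2.90 to 47.4 in replicate 1 and of 1.93 to 55.2 in replicate 2. Col1a1 was highest by the mean of the libraries at 2.48 ± 0.193 (SD, n = 2 libraries), and Col2a1 lowest at 0.675 ± 0.0906. These values take the strongest peak at any start. Those of Col26a1 and Col13a1 lay at internal starts, and their main starts had 0.540 and 0.685, and 0.521 and 0.463. Col2a1 had no narrow peak within 1000 bp of its main start. The Col1a1 peak, 957 and 967 bp after the main start, counts at that start but lay nearer to an internal one.

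**Figure D2:**
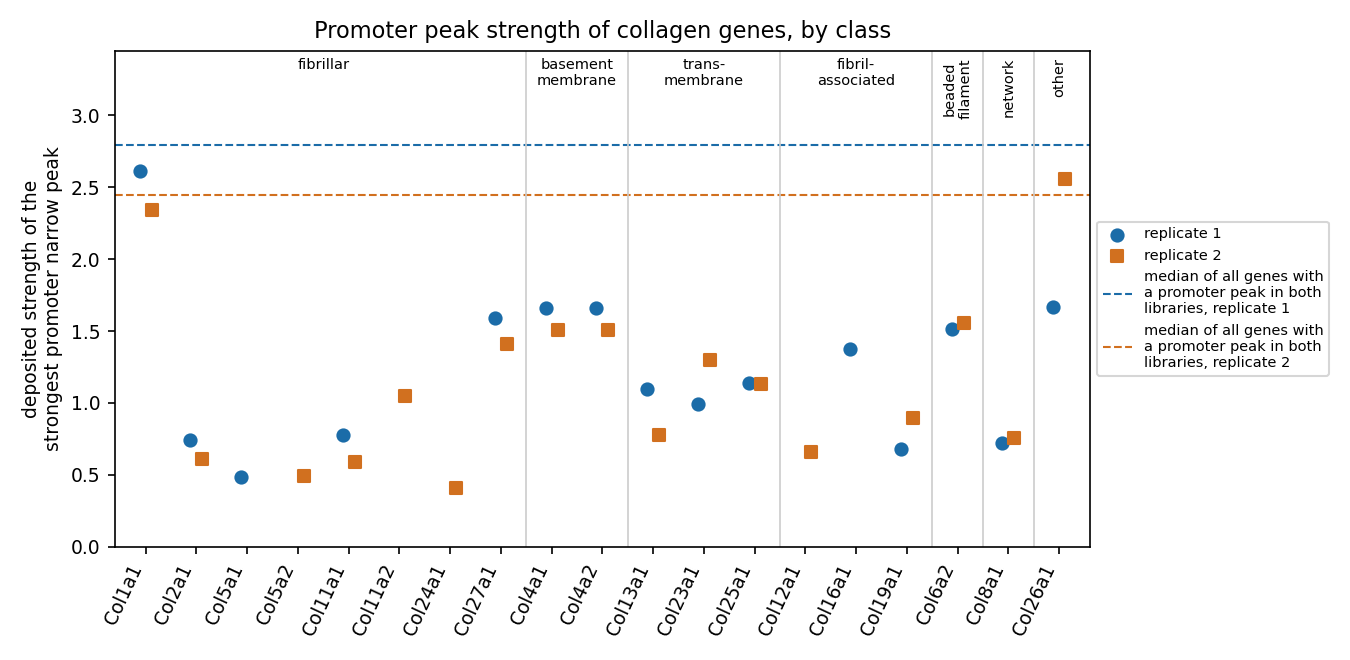
Deposited strength of the strongest promoter narrow peak of the 19 collagen genes that had one in either library, by class, with replicate 1 as blue circles and replicate 2 as orange squares; dashed lines are the medians of all genes with a promoter narrow peak in both libraries. Apart from Col26a1 in replicate 2 (2.56), every point lies below the line of its own library (2.80 and 2.44). The points of Col26a1, Col13a1 and Col2a1 are peaks near internal transcript starts. Those of Col1a1 lie 957 and 967 bp after its main start, nearer to an internal one.

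The strongest promoter peak of each main class by the mean of the libraries is shown as sequence, 1 peak per class. The Col1a1 peak lies in an intron, with midpoints 957 and 967 bp after the main start, which itself carried no peak. Stronger promoters of other genes, such as Col26a1, are not shown. The sequences are the stretch called in both libraries (its central 300 bases for Col4a1), from the GRCm38.p6 RefSeq genome, plus strand, 5′ to 3′. Capitals mark bases inside a footprint of both libraries.
Col1a1, chr11:94937081-94937280: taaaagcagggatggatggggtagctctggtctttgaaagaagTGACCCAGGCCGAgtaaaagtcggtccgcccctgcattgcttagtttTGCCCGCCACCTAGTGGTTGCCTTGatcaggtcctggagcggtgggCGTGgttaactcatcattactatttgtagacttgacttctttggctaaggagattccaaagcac
Col4a1 and Col4a2, chr8:11312551-11312850: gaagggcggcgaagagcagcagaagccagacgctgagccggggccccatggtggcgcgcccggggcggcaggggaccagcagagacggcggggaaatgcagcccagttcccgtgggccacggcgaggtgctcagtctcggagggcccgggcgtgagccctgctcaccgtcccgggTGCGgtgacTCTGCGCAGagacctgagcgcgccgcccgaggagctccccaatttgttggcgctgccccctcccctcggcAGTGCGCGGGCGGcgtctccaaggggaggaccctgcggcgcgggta
Col23a1, chr11:51289591-51289720: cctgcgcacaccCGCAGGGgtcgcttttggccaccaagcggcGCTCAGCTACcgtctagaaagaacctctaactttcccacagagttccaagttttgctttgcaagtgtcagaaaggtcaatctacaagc
The Col1a1 stretch has 42 bases in shared footprints, and these hold a match to the CTCF core CNAGGNGGC and to a longer CTCF consensus. The type IV stretch holds the starts of both genes, at 11312826 and 11312805. Its 26 bases in shared footprints hold the GC box GGGCGG, which Sp and KLF factors bind. The 17 bases of the Col23a1 stretch hold none of the 11 patterns searched. A match describes the letters and does not show binding.

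Fibrillar collagens had 4 of 11 genes with a promoter narrow peak in both libraries. Col1a1 (chr11:94936224-94953042, plus strand), a chain of type I collagen, the main collagen of bone and skin, had promoter peaks of strength 2.62 and 2.34 in replicates 1 and 2. It had 3 narrow peaks in each library and 14 and 9 footprints in a window from 10 kb before the gene to 10 kb past it, which is used for all such counts. All its peaks lay in introns, with midpoints 957 and 967 bp, 1353 and 1404 bp, and 3263 and 3237 bp after the main start, so the start itself carried no peak. The genes of its partner chain and of the collagen most often found beside it in fibrils showed less. Col1a2, the other type I chain, had no promoter peak in either list, 1 and 0 narrow peaks and 3 footprints in each library. Col3a1, the type III chain of vessel walls and skin, had no narrow peak, broader-list peak or footprint in either library. Type I collagen is made from both its genes, and here their windows differed by 2 and 3 narrow peaks.

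Cartilage fibril genes were open weakly. Col2a1, the type II chain that makes up most of cartilage collagen, had promoter strengths of 0.739 and 0.611, from a single exonic peak at 2173 and 2103 bp after the main start that lies near an internal, non-coding transcript start. Its window held 2 narrow peaks and 8 footprints in each library. Col11a1, a type XI chain, had 0.777 and 0.593 at the main start itself, with 1 and 2 narrow peaks and 5 and 9 footprints. Col27a1, which is expressed in developing cartilage, was the strongest of these with 1.59 and 1.41. Its peak lay at -104 and -121 bp from the main start, and its 6 and 5 narrow peaks came with 14 and 18 footprints.

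The remaining fibrillar genes were called in 1 library or in none. Col5a1, a type V chain that limits fibril diameter, had a promoter peak of 0.483 in replicate 1 and none in replicate 2, with 5 and 3 narrow peaks and 14 and 16 footprints in its window. Its partner Col5a2 had 0.491 in replicate 2 alone, 0 and 2 narrow peaks and 2 and 5 footprints. Col5a3 had no promoter peak, 2 and 1 narrow peaks and 7 and 3 footprints. The Col5a1 and Col5a2 promoter peaks were at percentiles 0.617 and 0.879 of promoter strength in the library that had them, and the Col5a2 promoter was in the broader list of both libraries at 0.426 and 0.491. Col11a2, another type XI chain, had promoter peaks in replicate 2 alone, the strongest at 1.05. Its window held 2 and 7 narrow peaks and 9 and 38 footprints, the widest gap in footprints between the libraries of any collagen gene. In replicate 2, 4 of these 7 peaks lay upstream at starts of the neighbours Rxrb and Slc39a7, the strongest at 3.97, and in replicate 1 the peak there had 5.20. Col24a1, a fibrillar chain of developing bone, had 0.407 in replicate 2 alone, 0 and 2 narrow peaks and 0 and 5 footprints.

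Type IV collagen had 2 of 4 genes with a promoter narrow peak in both libraries, and these share it. Col4a1 (chr8:11198423-11312826, minus strand) and Col4a2 (chr8:11312805-11449287, plus strand), the chains of nearly all basement membranes including those of brain vessels, are transcribed away from each other from overlapping starts. The peak over both starts had strength 1.66 and 1.51 and counts once for each gene. With Col4a2 left out, 12 of 41 collagen genes had a promoter narrow peak in both libraries. The windows held 5 and 6 narrow peaks with 20 and 26 footprints for Col4a1, and 6 and 5 narrow peaks with 26 and 35 footprints for Col4a2, in part the same. The pair Col4a3 and Col4a4, whose chains form the filtering basement membrane of the kidney, has the same head-to-head layout on chromosome 1 and had no promoter peak in either list. Col4a3 nevertheless had 5 and 4 narrow peaks and 14 and 12 footprints. The strongest of these peaks, 3.32 and 2.85, lay downstream at the start of the neighbour Mff. Col4a4 had no narrow peak, and 1 and 0 footprints.

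Transmembrane collagens had 3 of 4 genes with a promoter narrow peak in both libraries. Col23a1 (chr11:51289920-51583918, plus strand) had 0.995 and 1.30 in a peak just before its start. Its 10 and 5 narrow peaks and 27 and 23 footprints included the promoter of the neighbour Phykpl at 3.14 and 3.02. Col25a1 (chr3:130131501-130599877, plus strand), made by neurons and found in amyloid plaques as a cleaved fragment, had 1.14 and 1.13. It is the longest collagen gene, and its window held only 4 narrow peaks in each library, with 16 and 20 footprints. Col13a1, which is known from the neuromuscular junction, had its strongest promoter peak, 1.10 and 0.778, at an internal transcript start 100716 bp after the main start. The peak nearest the main start, at 645 and 607 bp after it, had 0.521 and 0.463, and the window held 3 narrow peaks in each library with 12 and 9 footprints. Col17a1, the hemidesmosome collagen of skin, had no promoter peak in either list. Its 2 narrow peaks in each library, with 4 and 9 footprints, lay inside the gene.

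The fibril-associated genes, whose products decorate fibrils, had 1 of 9. That gene was Col19a1, known in mice from the synapses of interneurons, with 0.682 and 0.898. It had 3 narrow peaks at the promoter in each library, 7 and 4 over the window and 16 footprints in each. Col16a1 had 1.37 in replicate 1 alone, and in the broader list 1.37 and 0.917, with 4 and 3 narrow peaks and 18 and 13 footprints. Col12a1, a collagen of tendon and muscle, had 0.657 in replicate 2 alone, with 0 and 2 narrow peaks and 5 and 9 footprints. The cartilage chains Col9a1, Col9a2 and Col9a3, and Col14a1, Col20a1 and Col22a1 had no promoter narrow peak. Col22a1, a collagen of muscle-tendon junctions, had 7 and 5 narrow peaks inside the gene all the same, with 12 and 15 footprints. The remaining 5 ranged from 0 to 2 narrow peaks in replicate 1 and from 0 to 3 in replicate 2.

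Beaded filament collagens had 1 of 6. Col6a2, a type VI chain, had 1.52 and 1.56, which was its only narrow peak in each library, with 2 and 3 footprints. Col6a1, which lies next to it on chromosome 10 and encodes the partner chain, had no promoter peak in either list. Its 2 narrow peaks in each library were upstream, the stronger (2.08 and 2.21) at -9042 bp and the other at -7284 bp from the main start. Col6a3, Col6a4, Col6a5 and Col6a6 had no promoter peak either, and 2 or 3 narrow peaks and 5 to 14 footprints each. Col6a6 had the most narrow peaks of these, 3 in each library, with 9 and 10 footprints, and Col6a4 had 14 and 9 footprints.

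The network collagens had 1 of 3, the multiplexins 0 of 2 and the other collagens 1 of 3. Col8a1, a chain of the Descemet membrane of the cornea and of vessel walls, had 0.720 and 0.759, with 3 narrow peaks in each library and 7 and 3 footprints. Its partner Col8a2 had no promoter peak, and the stronger of its 2 peaks in each library, 6.42 and 6.71, was at the start of the neighbour Adprhl2. Col10a1, the collagen of hypertrophic cartilage, was the one collagen gene with no interval of the false discovery rate table in its window in either library. The multiplexin Col15a1 had a promoter peak in the broader list, 0.521 and 0.444. Its window held 4 and 6 narrow peaks with 13 and 20 footprints. Col18a1, whose product releases endostatin, had no promoter peak in either list and 3 narrow peaks in each library, with 8 and 10 footprints.

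Col26a1 had the widest gap between the libraries in promoter strength. The strongest peak, 1.67 and 2.56, lay at an internal transcript start 127729 bp after the main start, and the peak nearest the main start, at 189 and 204 bp after it, had 0.540 and 0.685. Its window held 6 narrow peaks in each library, with 18 and 17 footprints. Col7a1, the anchoring fibril collagen of skin, had no promoter peak, and its 1 narrow peak in each library, 2.73 and 1.76, was at the start of the neighbour Pfkfb4. Col28a1 had no promoter peak, 1 and 0 narrow peaks, and 3 and 0 footprints.

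**Figure D3:**
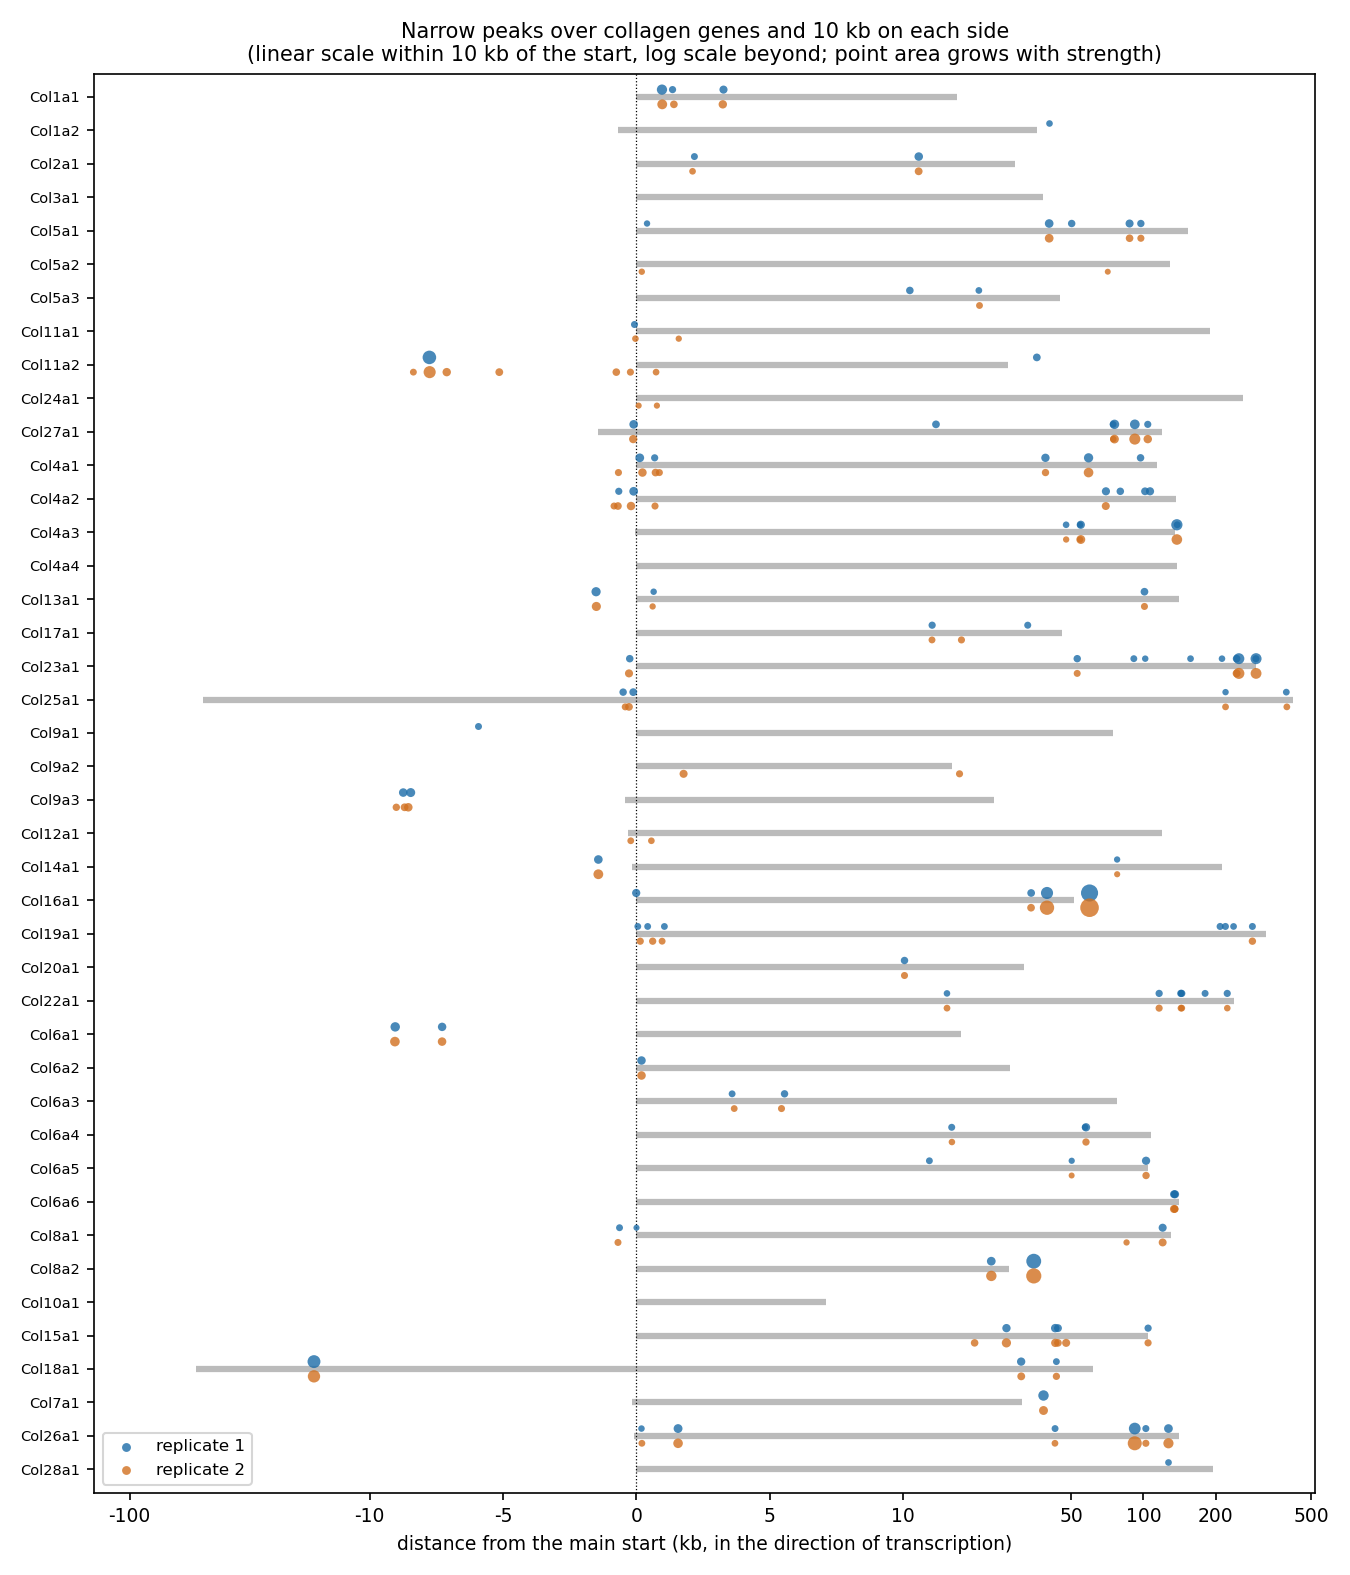
Narrow peaks in the windows of the 42 collagen genes (grey bars, main start at 0), with replicate 1 above the bar in blue and replicate 2 below it in orange; the axis is distance from the main start in kb, linear to 10 kb and logarithmic beyond, and point area grows with strength. Col3a1, Col4a4 and Col10a1 carry no point, and many points lie far from the start.

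Narrow peaks in collagen windows lay mostly inside the genes, which at the median length of 110.85 kb also make up most of the window. At least 1 narrow peak was present in the window in both libraries for 32 of 42 collagen genes, against 71.9% of all genes, and at least 1 footprint for 36 of 42, against 76%. Neither comparison was matched for gene length, and longer windows have more room for a peak. Of the 23 collagen genes with no promoter narrow peak, 16 had a narrow peak elsewhere in the window in both libraries. For Col7a1 and Col9a3 these peaks all lay within 1000 bp of a neighbour's start. The matching share over all genes was not computed. Over distinct peaks, 61.9% of 113 in replicate 1 and 52.3% of 107 in replicate 2 were in introns, a share not computed over all genes. Of these collagen peaks, 32.7% and 42.1% lay within 1000 bp of a start of any gene. In the windows of all genes, 60.8% and 64.3% of the narrow peaks did, without matching for gene length. Of the distinct peaks 83 overlapped one of the other library, 73.5% of replicate 1 and 77.6% of replicate 2, against 78.1% and 78.9% over the windows of all genes.

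The density of sites moved with gene length. The median collagen gene had 0.216 and 0.193 narrow peaks per 10 kb of window, against 0.315 and 0.307 for all genes. In the broader list it had 0.335 and 0.368, against 0.475 and 0.480, and it had 0.610 and 0.635 footprints per 10 kb, against 1.33 and 1.39. Among genes of 100 kb or more the narrow peak medians were 0.213 and 0.167 for collagen genes and 0.166 and 0.160 for all genes, so collagen genes were above in both libraries. In the broader list these long genes had 0.311 and 0.327, against 0.321 and 0.321, so collagen genes were below in replicate 1 and above in replicate 2. The footprint medians there were 0.562 and 0.602 for collagen genes and 0.699 and 0.715 for all genes. In the gene body alone the narrow peak median, as the mean of the libraries, was 0.204 for collagen genes and 0.0395 for all genes. That pair does not match gene length, whose medians were 110.85 kb for collagen genes and 17.629 kb for all genes. Over the whole window, the mean over genes in place of the median was 0.253 narrow peaks per 10 kb, against 0.449.

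**Figure D4:**
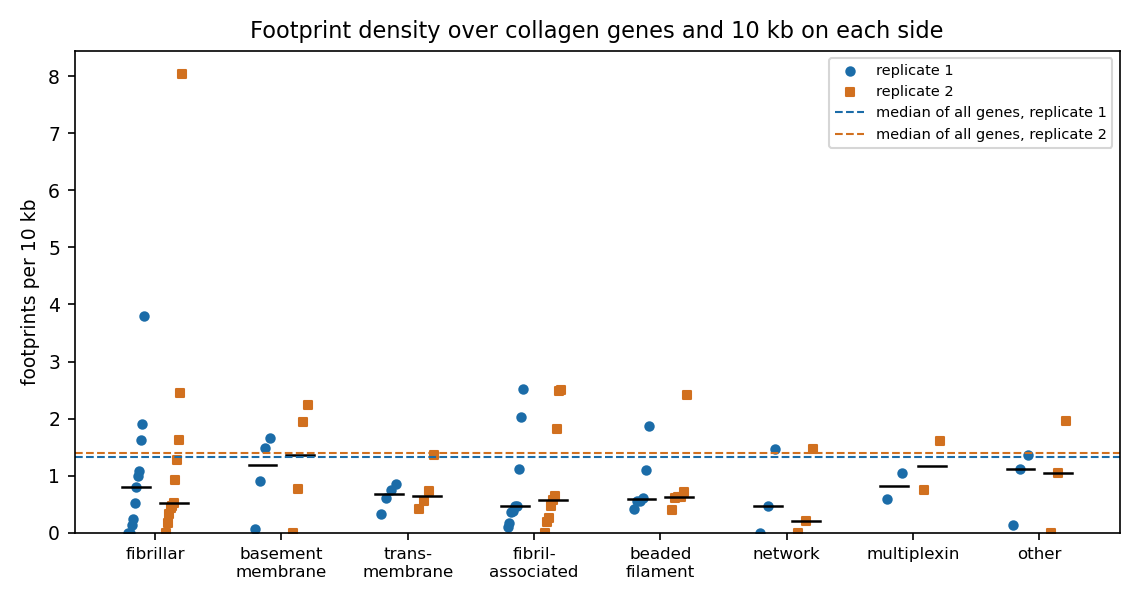
Footprints per 10 kb of window for each collagen gene, by class, with replicate 1 as blue circles and replicate 2 as orange squares; black lines are class medians and dashed lines the medians of all genes. The all-gene medians are 1.33 and 1.39, and the point at 8.04 is Col11a2 in replicate 2, which had 1.90 in replicate 1.

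Sites shared by both libraries more than 1000 bp from any annotated start numbered 52 in 26 collagen genes. Of these, 45 lay in introns, 3 in exons and 4 upstream, and 39 had bases in a footprint of both libraries. Col22a1 had the most with 5, and Col15a1 and Col26a1 had 4 each. By the mean of the libraries, 5 of them were stronger than the strongest collagen promoter peak (2.48). They were a site in Col16a1 at 39701 bp after the main start (3.98 and 5.91), one in Col26a1 at 92100 bp (3.71 and 5.63), and one in Col18a1 between its starts (4.63 and 4.17). The others were in Col23a1 at 249961 bp (3.09 and 3.18) and in Col27a1 at 92156 bp (2.26 and 3.20). All 5 lay in introns. Taken over all their narrow peaks more than 1000 bp from any start, the median strength was 0.957 and 0.977, against 1.11 and 1.02 in the windows of all genes. The share of all genes with a shared site of this kind was not computed. Nor was the share of those sites with bases in a footprint of both libraries. Collagen genes were also longer, with a median of 110.85 kb, against 17.629 kb, so the 26 genes cannot be called many or few.

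The 5 of these sites with the most footprints over both libraries are shown, to give the protected bases away from promoters. The Col14a1 site tied with 8 others and was taken for its higher mean strength. The conventions are those above.
Col18a1, intron, chr10:77130641-77130880: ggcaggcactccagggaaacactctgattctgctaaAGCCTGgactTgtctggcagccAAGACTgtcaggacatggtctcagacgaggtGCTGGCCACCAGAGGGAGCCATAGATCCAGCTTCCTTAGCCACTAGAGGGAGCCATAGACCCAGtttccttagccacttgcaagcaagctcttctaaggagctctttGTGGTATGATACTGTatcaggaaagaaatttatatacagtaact
Col16a1, intron, chr4:130087441-130087640: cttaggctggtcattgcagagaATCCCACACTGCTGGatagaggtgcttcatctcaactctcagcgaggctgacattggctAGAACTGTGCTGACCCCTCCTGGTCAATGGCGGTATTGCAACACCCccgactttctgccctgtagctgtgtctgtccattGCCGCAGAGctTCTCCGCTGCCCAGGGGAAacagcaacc
Col2a1, intron, chr15:97992961-97993220: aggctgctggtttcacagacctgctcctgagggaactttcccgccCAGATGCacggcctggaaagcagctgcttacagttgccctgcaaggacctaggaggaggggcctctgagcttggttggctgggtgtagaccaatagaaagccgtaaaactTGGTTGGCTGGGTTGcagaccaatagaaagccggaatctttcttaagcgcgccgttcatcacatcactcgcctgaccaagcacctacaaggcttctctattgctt
Col4a1, intron, chr8:11273602-11273789: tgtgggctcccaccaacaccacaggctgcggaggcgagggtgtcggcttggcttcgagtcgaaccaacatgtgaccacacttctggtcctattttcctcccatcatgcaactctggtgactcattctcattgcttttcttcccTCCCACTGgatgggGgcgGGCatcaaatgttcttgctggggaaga
Col14a1, upstream, chr15:55306401-55306580: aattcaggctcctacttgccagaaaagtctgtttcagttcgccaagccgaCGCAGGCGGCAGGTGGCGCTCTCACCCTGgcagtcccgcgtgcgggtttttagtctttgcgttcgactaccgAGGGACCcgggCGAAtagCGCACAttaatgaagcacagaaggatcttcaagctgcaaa
The Col18a1 site had 4 and 6 footprints and 92 bases in footprints of both libraries. Both of its matches to the CTCF consensus lie wholly in those bases and overlap a repeat, whose longest exact run, agagggagccataga, starts at bases 100 and 134 of the printed stretch. The Col16a1 site had 4 footprints in each library and 89 shared bases. The Col2a1 site had strengths of 1.54 and 1.17, 6 and 2 footprints and 22 shared bases, and carries the run agaccaatagaaagccg, with a CCAAT box, at bases 132 and 172. The Col4a1 site had strengths of 1.44 and 0.917, 4 footprints in each library and 12 shared bases, with a GC box, an AP-1 motif TGANTCA and a RUNX motif TGTGGT that do not lie wholly in them. The Col14a1 site had strengths of 1.60 and 2.31, 3 footprints in each library and 46 shared bases, and lay at -1428 bp from the main start, beyond the promoter window.

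The sequence of collagen promoters was also compared with that of all genes. Their median GC content over the 300 bases around the main start was 60.5%, against 56.3%, and their median CpG observed/expected ratio was 0.482, against 0.573. The GC box GGGCGG was present on either strand in 24 of 42 collagen promoters (57.1%), against 46.2% of all promoters. The CCAAT box CCAAT was in 14 (33.3%), against 38.2%, and the TATA box TATAAA in 6 (14.3%), against 12.7%. The 6 with a TATA box were Col1a1, Col3a1, Col10a1, Col13a1, Col14a1 and Col17a1. The E-box CAGCTG was in 6, against 15.5% of all promoters, the TEAD motif GGAATG in 6, against 2714 of 20807, and the NFI motif TTGGCA in 6, against 13.4%. The RUNX motif TGTGGT was in 4, against 3125 of 20807, and the CTCF core CNAGGNGGC, which the longer consensus overlaps, in 4, against 9.98%. The AP-1 motif TGANTCA was in 1 (Col6a1), against 6.67%, the CRE TGACGTCA in 1 (Col24a1), against 2.48%, and the NRF1 core GCGCATGC in 0, against 3.47%. Over the 52 shared distal sites, 10 (19.2%) matched the CTCF consensus, against 1631 of 8174 such sites in the windows of all genes.

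Calls in 1 library alone were set beside the coverage of the false discovery rate table. Of the 6 collagen promoters called in 1 library alone, 3 (Col5a1, Col11a2 and Col24a1) had their peak inside a stretch of at least 20 kb where the other library's false discovery rate table lists no interval. Over all genes this was so for 124 of 876 (14.2%). The table held 97 intervals in replicate 1 and 0 in replicate 2 for the window of Col9a1, 69 and 0 for Col28a1, 7 and 344 for Col24a1, and 639 and 2711 for Col11a2. The Col28a1 and Col9a1 intervals came with 1 and 2 broader-list peaks in replicate 1. Whether these stretches bear on the calls was not tested.

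Genes that make, bind or break down collagen were set beside the collagen genes, in 4 lists. Of 30 genes for collagen synthesis and processing, 18 had a promoter narrow peak in both libraries, where collagen genes had 13 of 42, against 56% of all genes. The shares of synthesis genes (60.0%) and receptors (54.5%) were near that of all genes. The strongest were P4hb, which encodes a subunit of prolyl 4-hydroxylase (7.06 and 4.43), P4ha1, the catalytic subunit (5.74 and 5.17), and P3h1, a prolyl 3-hydroxylase (5.28 and 4.74). The genes with no promoter peak in either list were the propeptide-cleavage genes Pcolce and Adamts14 and the cross-linking oxidase genes Lox, Loxl2 and Loxl4. Of 11 receptor genes 6 had one, led by the integrin subunit gene Itgb1 (2.71 and 2.17), Ddr1 (1.76 and 1.81) and Adgrg1 (1.46 and 1.48), and Ddr2, Itga10, Gp6 and Mrc2 had none in either list. Of 10 breakdown genes 3 had one, the inhibitor genes Timp2 (1.79 and 2.00) and Timp3 (1.13 and 1.01) and the protease gene Fap (0.531 and 0.380), and Timp4, Mmp2, Mmp8 and Mmp13 had none in either list. Of 17 genes for basement membrane partners of type IV collagen 6 had one, led by the proteoglycan genes Hspg2 (1.88 and 1.40) and Agrn (1.51 and 1.61) and the laminin gene Lamc1 (1.57 and 1.39), and Nid1 had none in either list. With the broader list the counts were 21 of 30 synthesis, 7 of 11 receptor, 6 of 10 breakdown and 11 of 17 partner genes. Collagen genes had 16 of 42 there, against 62% of all genes, so the low narrow-list shares of breakdown and partner genes did not hold in that list.

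**Figure D5:**
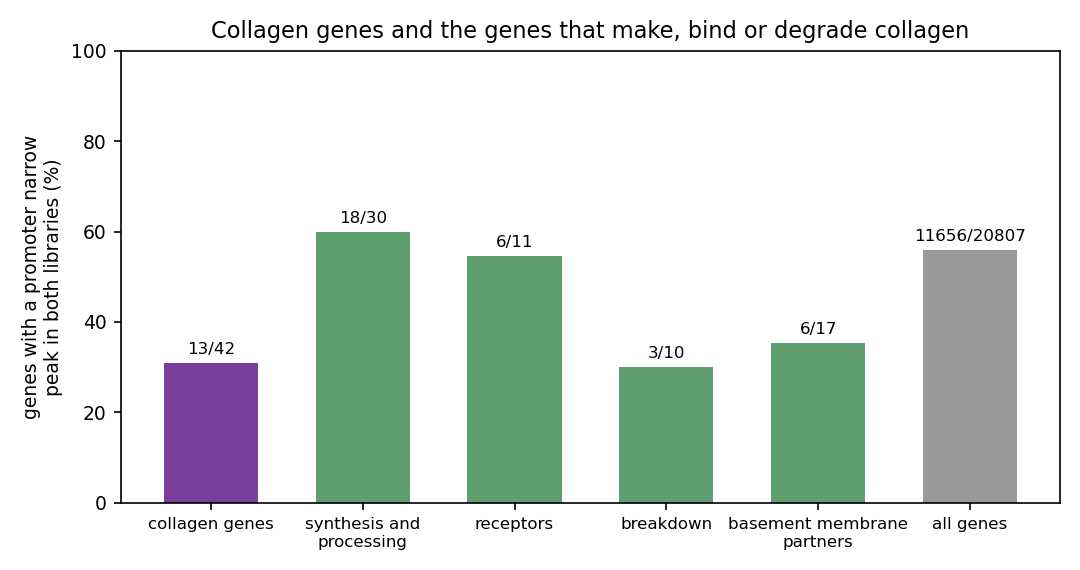
Share of genes (%) with a promoter narrow peak in both libraries, for collagen genes (purple), 4 lists of genes that make, bind, break down or sit beside collagen (green) and all autosomal protein-coding genes (grey), with counts above the bars. Collagen genes (13 of 42) and breakdown genes (3 of 10) have the lowest bars, and synthesis genes (18 of 30) the highest. In the broader list, which is not drawn, breakdown genes had 6 of 10 and collagen genes 16 of 42.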

How the data were processed

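Libraries of 1 tissue were analysed from the deposited files. Per the notes deposited with the files, peaks, false discovery rates and footprints were made for each library alone on mm10. No aligner or peak caller is named in the sources used here. Strength is the authors' deposited signal value per peak, normalization not given, and was compared without scaling. The false discovery rates are deposited q-values for short intervals, listed only under 0.05. Every narrow peak held an interval at 0.001 or less and every broader-list peak one under 0.05. Peaks of a list can overlap each other. The constant value of the footprint files was not used.

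Genes and starts came from GENCODE M21, and sequences from the RefSeq GRCm38.p6 genome. A promoter peak shares at least 1 bp with 1000 bp on either side of a start. Peaks and footprints were assigned to windows by midpoint, so neighbouring windows can share them. With 1 group no p-value was computed, and shares over all genes stand beside those of the members. Read depth is unknown, so no counting interval is given, and a missing peak means only that none was called.

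Members and lists were chosen with earlier results of these data known. The length split, the main start, the count without Col4a2 and the CTCF consensus were chosen after seeing the data. Full values were given for members with a promoter narrow peak in either library, for the main classes (fibrillar, basement membrane, transmembrane), and for the 3 others with the most narrow peaks, where Col18a1 and Col6a6 tied. From each pathway list the text names the 3 strongest promoters and the genes with no promoter peak in either list. Counting code was tested on simulated data. Python 3.11.15, pandas 2.3.3, numpy 2.4.6 and matplotlib 3.10.9 were used.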

Additional observations from a re-analysis of the deposited data

How the results depend on the processing

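Of 36 alternative settings, 25 moved no value beyond the limits set, and 11 did. Counts were held to a fixed fold of the main count, whatever the number of genes. Densities and shares of shared peaks were held to the SD of the 2 libraries. Either library alone always lies within that SD, so the single-library densities could not move. The limits ignore all genes, and gene-body narrow peak density counted as unmoved at 0.204, against 0.0395. With the strongest 50% of narrow peaks, the promoter count was 6 collagen genes (14.3%), against 48.4% of all genes, and the median density was 0.0615, against 0.176. Windows of 50 kb on each side gave densities of 0.226 narrow peaks, against 0.290, 0.402 broader-list peaks, against 0.471, and 0.826 footprints, against 1.28. The gene body alone gave 0.561 footprints, against 0.686. Leaving out peaks near starts gave 0.111 narrow peaks, against 0, and the mean over genes in place of the median 0.253, against 0.449. Shared peaks were 60.0% with 50% overlap, against 61.1%, and 70.0% in the broader list, against 75.3%. A CpG limit of 0.75 left 4 of 8 collagen genes, against 89.6%. Leaving out promoter peaks near another gene's start gave 11 collagen genes (26.2%), against 37.9% of all genes, a smaller gap. Collagen genes passed above all genes for narrow peak density in the gene body alone, without peaks near starts and among genes of 100 kb or more, and for broader-list density in the gene body (0.343, against 0.278). Of these settings, only the limit of 100 kb or more restricted gene length in both groups. With either library alone, promoter counts were 15 to 17 in the narrow list (35.7% to 40.5%, against 58.0% to 58.2%) and 17 to 22 in the broader (40.5% to 52.4%, against 63.6% to 64.1%), densities 0.193 to 0.216 narrow peaks, 0.335 to 0.368 broader-list peaks and 0.610 to 0.635 footprints, and CpG-rich counts 8 in each (61.5%, against 88.9% and 89.0%). No paired analysis was possible because the libraries form 1 group. A promoter without a peak may be open in a few cells, since the read depth behind each value is unknown.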
